A study of Homo sapiens with 4 samples.

Results

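Interferon-stimulated genes are the transcripts that cells make in response to interferons, and 46 of them, named as a list, were followed here through 4 RNA-seq libraries of MCF10A cells. They were found by matching each gene symbol to the deposited table, which held 43 of the 46 among 18840 genes. IFI44, IFITM3 and XAF1 were not analysed here. MCF10A is an immortalised, non-tumorigenic human mammary epithelial line. The cells carried 1 of 4 stable retroviral pBabe constructs, namely the microRNA miR-105, MYC, GFP, or the empty vector. All 4 shared the pBabe backbone and a serum-containing medium with EGF, insulin, hydrocortisone and cholera toxin, and no label names an interferon or a virus other than the construct. Each construct had 1 poly(A) library, and whether a line was a pool or 1 clone is not given in the sources used here.

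No test between constructs was therefore possible as the main result, and differences are given as folds with 95% counting intervals, which leave out the spread between cultures. The recovered totals were 6859698 reads for miR-105, 9795159 for MYC, 14025115 for GFP and 9138429 for vector, so that 1 read was worth between 0.0722 and 0.157 CPM, that is, reads scaled to library size. MYC mRNA stood at 463 CPM with the miR-105 label, 232 with the MYC label, 198 in GFP and 207 in vector. It was thus highest under the other tested label. MXI1, which encodes a partner of MAX that opposes MYC, had 14.0, 79.2, 88.9 and 81.2 CPM in the miR-105, MYC, GFP and vector libraries, and so was lowest with the miR-105 label. Every direction below therefore belongs to a labelled library and not to a measured excess of MYC under the MYC label. The mammary epithelial label held, with all 9 markers analysed above 1 CPM in every library. That list summed to 7881, 7959, 10142 and 11950 CPM in the miR-105, MYC, GFP and vector libraries. By the 2-fold rule given below, 2 of the 9 were higher and 3 lower with the miR-105 label (14.7% and 16.6% of all compared genes). With the MYC label 2 were higher and 2 lower (9.03% and 10.4% of all compared genes). Of 9 leukocyte markers, PTPRC had 1 read in all and HLA-DRA 0 in every library, and the list summed to 3.76, 12.3, 10.6 and 10.5 CPM in the miR-105, MYC, GFP and vector libraries, most of it CD14. Of the 5 endothelial markers, KDR and PECAM1 reached 1 CPM, and that list summed to 3.61, 92.2, 49.6 and 46.8 CPM in the same order. The 7 fibroblast markers, led by DCN, summed to 27.4, 158, 84.7 and 130.7 CPM. The sums of the leukocyte, endothelial and fibroblast lists were thus lowest in the library labelled miR-105 and highest in the library labelled MYC. The part that these marker differences play in the results below was not tested. In bulk RNA, fewer cells making a transcript and less of it per cell cannot be told apart.

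Type I and type III interferons bind their receptors and activate the kinases JAK1 and TYK2, which phosphorylate STAT proteins. STAT2 and IRF9 are subunits of ISGF3, a complex that binds the interferon-stimulated response element (ISRE) in front of most of these genes. Interferon gamma acts through IFNGR1 and IFNGR2, JAK1 and JAK2, and STAT dimers that bind the gamma-activated sequence (GAS). Epithelial cells also keep many of these genes at a basal level without added interferon.

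A member counted as different in a labelled library if its CPM, with 0.5 added, was at least 2-fold away, in the same direction, from that of GFP and of vector. The rule was applied to the 12484 of 18840 genes whose mean over the 4 libraries reached 1 CPM. Of the 43 members, 36 passed that filter, and OAS2, OASL, MX1, MX2, HERC5, RSAD2 and CMPK2 did not. BST2 and IFI6 passed only through the library labelled MYC and so had to be high there. The fold of a single gene is the plain ratio of CPM, first against GFP and then against vector.

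More members were lower than higher with the miR-105 label, and more were higher than lower with the MYC label. In the library labelled miR-105, 3 of the 36 compared members were higher, where 14.7% of all compared genes were, and 11 were lower, where 16.6% of all genes were. These are 8.33% and 30.6% of the members. With the MYC label, 10 of 36 were higher (9.03% of all genes) and 5 were lower (10.4% of all genes), which are 27.8% and 13.9% of the members. The 10 include BST2 and IFI6, which had to be high in that library. The median log2 difference of the compared members was −0.75 with the miR-105 label, against 0.01 over all compared genes. With the MYC label it was −0.05, against 0.04 over all genes. That last median has no firm sign, because it was 0.22 over all 43 members without the filter and 0.06 when library totals alone set the scale. Over the 43 members together the level summed to 815 CPM with the miR-105 label, 1862 with the MYC label, 1518 in GFP and 1295 in vector.

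Member by member, 24 of the 36 were different in at least 1 labelled library. Of all 12484 compared genes, 3904 were different with the miR-105 label and 2426 with the MYC label. The share of all genes different in either or in both is not given here, so the 24 is a description. OAS3 and IFI44L were higher in both, where IFI44L with the miR-105 label missed the rule under the 3 other scalings and with 2 CPM added, and IFIT2, IFI27 and EPSTI1 were lower in both. IRF1, OAS1, IFITM1, IFITM2, BST2, PARP14, IFI6 and IFI35 were higher with the MYC label only, and ISG20 and SAMD9 were lower with it only. USP18 was higher with the miR-105 label only, and STAT2, IRF7, IRF9, IFIT1, GBP1, GBP2, ISG15 and TRIM22 were lower with it only. Counting GFP and vector as 1 control group, with 1 residual degree of freedom, edgeR called 3 compared members higher (19.8% of all genes) and 13 lower (19.3%) with the miR-105 label, and 10 higher (10.9%) and 5 lower (11.4%) with the MYC label. DESeq2 called 1 higher (12.9% of all genes) and 8 lower (14%) with the miR-105 label, and 8 higher (5.63%) and 2 lower (8.43%) with the MYC label, both at an adjusted p under 0.05. With DESeq2 the calls of USP18 and IFI44L as higher and of IRF7, IFIT1 and ISG15 as lower with the miR-105 label were lost, as were those of IFI6 and IFI35 as higher and of IFIT2, IFI27 and ISG20 as lower with the MYC label. By the 2-fold rule no member was higher in 1 labelled library and lower in the other, while edgeR also called IFITM2 and PARP14 lower with the miR-105 label, and both are higher with the MYC label. Here "only" refers to the 2-fold rule and not to a test of the difference. The library labelled MYC held the highest level of 14 of the 36, where it did so for 25.3% of all compared genes. Those 14 include BST2 and IFI6, which had to be high in that library. The library labelled miR-105 held the lowest level of 19, where it did so for 32.8%.

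**Figure D1:**
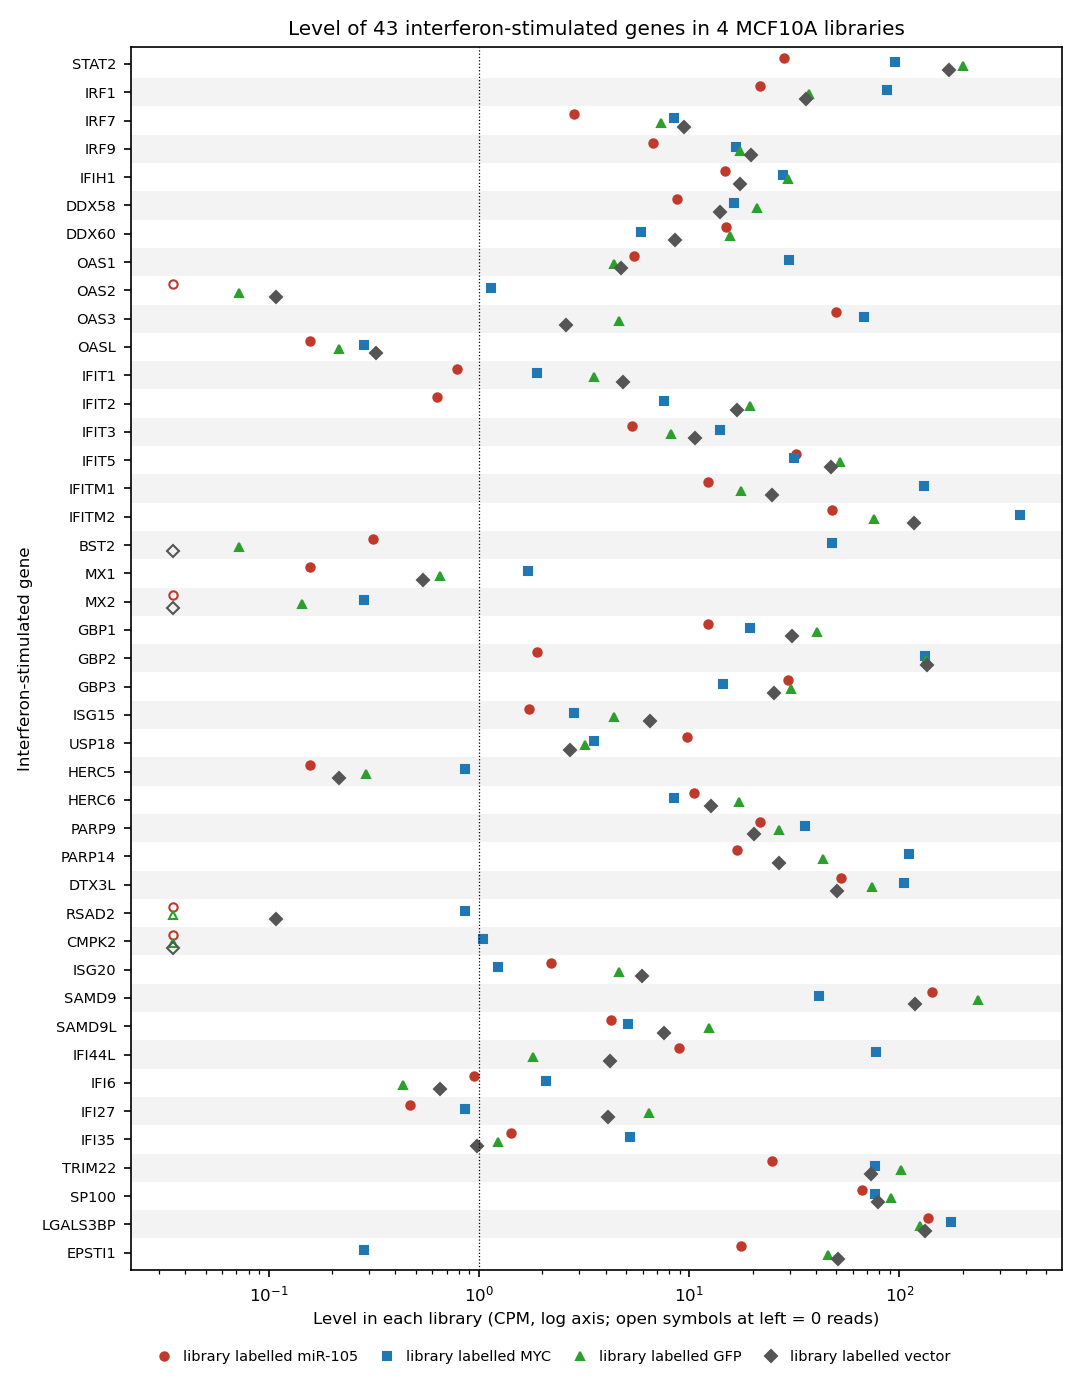
Level of each of the 43 members in CPM on a log axis, 1 symbol per library; the dotted line marks 1 CPM and open symbols at the left edge stand for 0 reads. BST2 stands at 47.6 CPM in the library labelled MYC and at no more than 2 reads elsewhere, and GBP2 stands at 1.88 CPM in the library labelled miR-105 and between 131.8 and 135.2 CPM in the other libraries.

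The promoters show what the members share apart from the measured values. RefSeq promoter windows (GRCh38.p14, 250 bases before to 50 after each start) were matched for 34 of the 43 members, and entries for IRF7, OAS2, OASL, IFIT2, IFITM2, MX2, GBP2, USP18 and TRIM22 were not used here. The ISRE core, read as GAAA, any 2 bases and GAAA on either strand, was present in 24 of the 34, against 4.38% of 27305 genes. The GAS letters TTCNNNGAA were present in 12 of the 34, against 9.38% of genes, and the E-box CACGTG, which MYC and MAX can bind, in 4, against 8.77%. Both the ISRE core and the GAS letters occurred in 8 promoters and neither in 6. A match describes letters and not a bound site. The stretches of 80 bases below are given because they stand before 7 of the members that differed with the MYC label. BST2, EPSTI1, IFITM1 and PARP14 hold both kinds of match, OAS3 and IFI44L an ISRE core, and IRF1 a GAS. Capitals mark the matches that lie wholly inside a stretch, which overlap in BST2 and EPSTI1:
BST2, chr19:17405710-17405789, minus strand: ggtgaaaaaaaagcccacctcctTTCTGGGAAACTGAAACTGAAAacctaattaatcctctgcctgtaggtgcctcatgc
EPSTI1, chr13:42992247-42992326, minus strand: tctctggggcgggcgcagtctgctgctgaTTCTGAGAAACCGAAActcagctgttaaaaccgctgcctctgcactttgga
IFITM1, chr11:313960-314039, plus strand: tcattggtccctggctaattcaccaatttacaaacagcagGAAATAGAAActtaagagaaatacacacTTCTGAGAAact
PARP14, chr3:122680759-122680838, plus strand: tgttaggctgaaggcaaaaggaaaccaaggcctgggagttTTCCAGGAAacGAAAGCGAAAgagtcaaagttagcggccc
OAS3, chr12:112938394-112938473, plus strand: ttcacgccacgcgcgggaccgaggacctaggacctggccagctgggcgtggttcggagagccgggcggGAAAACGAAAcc
IFI44L, chr1:78620340-78620419, plus strand: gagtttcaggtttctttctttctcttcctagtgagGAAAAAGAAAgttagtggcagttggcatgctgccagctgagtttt
IRF1, chr5:132490853-132490932, minus strand: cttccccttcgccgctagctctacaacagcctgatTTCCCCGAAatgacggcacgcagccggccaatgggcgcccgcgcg
In 5 of the 34 promoters, those of BST2, EPSTI1, IFI27, IFITM1 and MX1, a GAS overlapped an ISRE core. Of these genes, BST2 and EPSTI1 lay at opposite ends of the list in the library labelled MYC. A further ISRE core of IFITM1 begins in the last letters printed and runs across its start. OAS3 and IFI44L each have a further core upstream of the stretch, and BST2 has a further GAS downstream of it. Among the 21 compared members with an ISRE core, 2 were higher and 5 lower with the miR-105 label, and 6 were higher and 4 lower with the MYC label. Among the 9 compared members without one, none was higher and 2 lower with the miR-105 label, and 3 were higher and none lower with the MYC label. Over all compared genes the shares were 14.7% higher and 16.6% lower with the miR-105 label and 9.03% higher and 10.4% lower with the MYC label, and counts this small are given as a description.

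**Figure D2:**
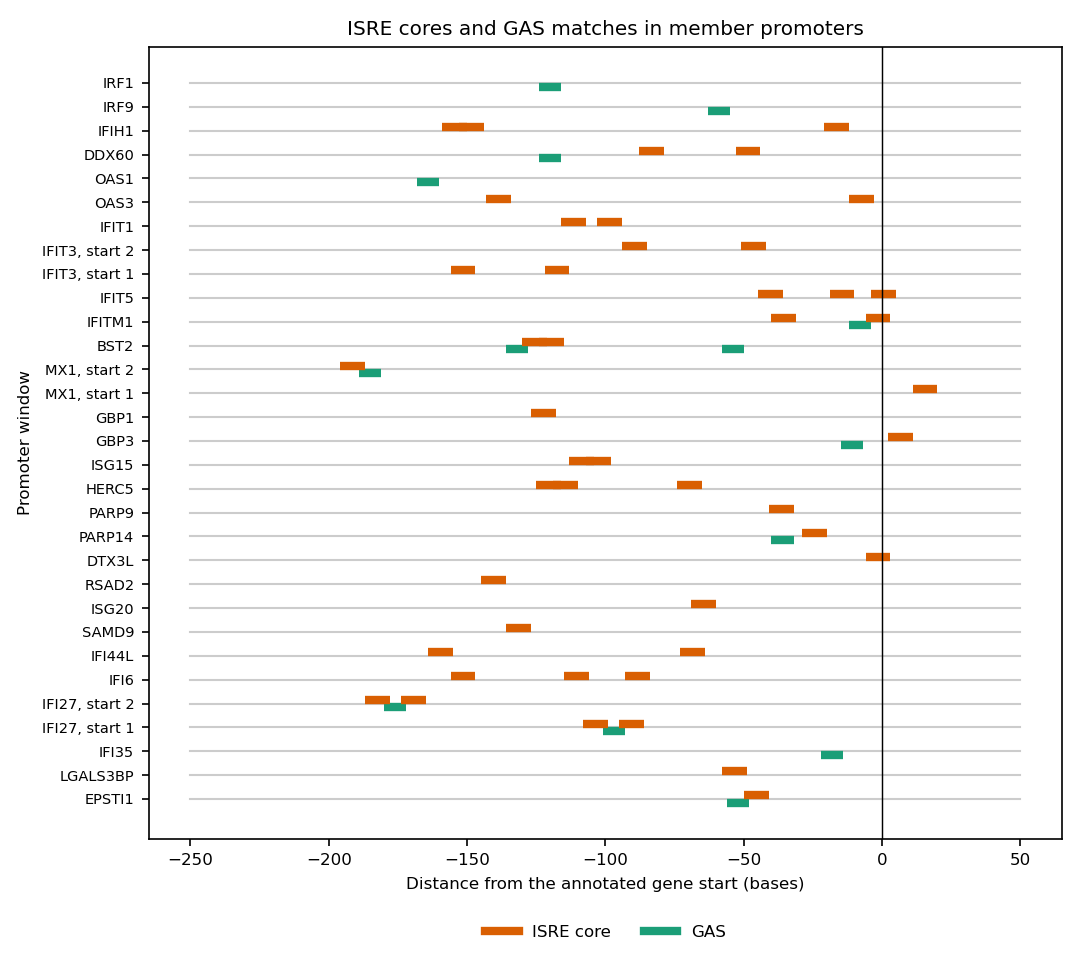
Matches to the ISRE core (orange) and the GAS letters (green) in the promoter windows of the 28 members with at least 1 match, by distance in bases from the annotated start, the vertical line at 0. The 31 windows include a second start for IFIT3, MX1 and IFI27, and most of the matches lie within 200 bases upstream.

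Of the 4 transcription factors of the list, 3 were lower with the miR-105 label, where 16.6% of all compared genes were. With the MYC label 1 was higher, where 9.03% of all compared genes were. STAT2, the subunit of ISGF3 that activates transcription, stood at 28.2 CPM with the miR-105 label, 94.8 with the MYC label, 200.5 in GFP and 172 in vector. Its level with the miR-105 label was 7.10-fold (6.10 to 8.30) lower than in GFP and 6.10-fold (5.23 to 7.16) lower than in vector. IRF9, the DNA-binding partner of STAT2, had 6.74, 16.8, 17.4 and 19.6 CPM in the miR-105, MYC, GFP and vector libraries, lower with the miR-105 label by 2.58-fold (1.86 to 3.66) against GFP and 2.90-fold (2.07 to 4.15) against vector. Both were thus lowest in the library labelled miR-105, with the 3 other IRF9 levels close together. IRF7, which amplifies type I interferon production, was also lowest there at 2.82, 8.44, 7.37 and 9.41 CPM in the same order of libraries. It was lower by 2.61-fold (1.57 to 4.58) against GFP and 3.33-fold (1.99 to 5.88) against vector, with 18 reads behind the lowest value. IRF1, an activator of many of the same genes, stood apart in the other library, with 21.6 CPM with the miR-105 label, 87.5 with the MYC label, 37.2 in GFP and 35.8 in vector. It was higher with the MYC label by 2.35-fold (2.11 to 2.63) against GFP and 2.45-fold (2.15 to 2.78) against vector.

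The genes that feed these factors were read from a second list of 10 genes, receptors, kinases and STAT3, all of which passed the filter. With the miR-105 label none was higher (14.7% of all compared genes) and 1 was lower (16.6%). With the MYC label 1 was higher (9.03% of all compared genes) and none lower (10.4%). These counts are thus near or below the general shares, and single genes are given as a description. IFNGR1, the ligand-binding chain of the interferon gamma receptor, had 52.7, 306, 165 and 192 CPM in the miR-105, MYC, GFP and vector libraries, lower with the miR-105 label by 3.13-fold against GFP and 3.65-fold against vector. IFNGR2, its signalling chain, had 67.3, 136, 52.6 and 49.6 CPM, higher with the MYC label by 2.58-fold against GFP and 2.74-fold against vector. IFNAR1 and IFNAR2, the type I receptor chains, met the rule in neither labelled library; IFNAR2 stood at 12.5, 30.5, 15.5 and 10.6 CPM.

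**Figure D3:**
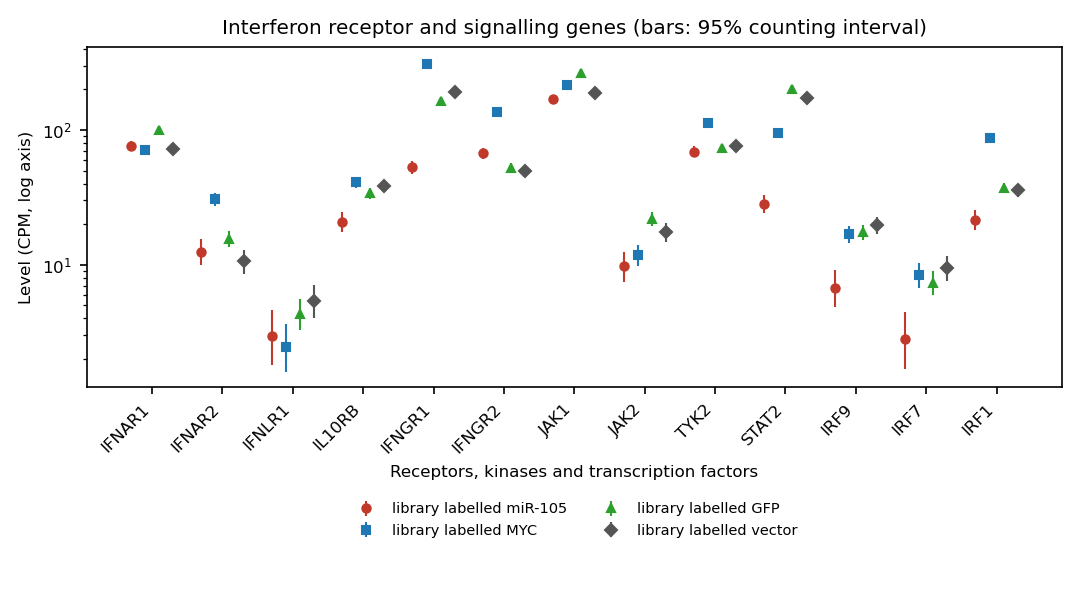
Level in CPM (log axis) of receptors, kinases and transcription factors of the interferon pathway in the 4 libraries; vertical bars are exact Poisson 95% intervals of the reads. STAT2, IRF9, IRF7 and IFNGR1 have their lowest point in the library labelled miR-105, and IRF1, IFNGR1 and IFNGR2 have their highest in the library labelled MYC.

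The interferon genes themselves were close to the detection limit. Of 21 interferon genes in the table none passed the filter, and together they had 2 reads in the miR-105 library, 5 in MYC, 15 in GFP and 15 in vector. IFNB1, IFNG, IFNK and IFNL1 had 0 reads in every library, where a count of 0 allows up to 0.471 CPM in miR-105, 0.284 in MYC, 0.217 in GFP and 0.324 in vector. IFNE, which epithelia of the female reproductive tract express, was the most counted, with 2, 3, 9 and 9 reads. IFNA1 with IFNA13, and IFNL2 with IFNL3, had equal counts, and each pair is near-identical in sequence, so those reads cannot be assigned. Interferon mRNA was thus at or near these limits in every library.

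The cytosolic RNA sensors of the list met the rule in neither labelled library. IFIH1, which encodes the sensor MDA5, had 14.7, 27.9, 29.6 and 17.4 CPM in the miR-105, MYC, GFP and vector libraries. DDX58, which encodes RIG-I, had 8.78, 16.4, 20.9 and 14.1 CPM, and the helicase DDX60 had 14.9, 5.88, 15.6 and 8.54 CPM. In all 3 the GFP library lay above the vector library. Of a wider list of 16 sensors and adaptors, 13 passed, and 2 were higher and none lower with the miR-105 label, while 4 were higher and none lower with the MYC label. The 2 of 13 higher with the miR-105 label are near the 14.7% of all compared genes, and 9.03% of all genes were higher with the MYC label. TMEM173, which encodes the DNA sensing adaptor STING, was in both higher groups at 29.3, 42.6, 6.79 and 13.2 CPM. MB21D1, the gene of the DNA sensor cGAS, was higher with the miR-105 label at 27.3, 8.63, 6.28 and 6.05 CPM, and IFI16, a nuclear DNA sensor, was higher with the MYC label at 49.9, 275, 45.5 and 48.3 CPM. MB21D1 and IFI16 thus met the rule in 1 labelled library each.

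OAS enzymes sense viral double-stranded RNA and make oligoadenylates, and of the 2 that passed the filter OAS3 was higher in both labelled libraries and OAS1 in 1. The general shares of higher genes were 14.7% with the miR-105 label and 9.03% with the MYC label. OAS3 stood at 49.7 CPM with the miR-105 label, 67.5 with the MYC label, 4.62 in GFP and 2.59 in vector. It was higher with the miR-105 label by 10.8-fold (8.20 to 14.3) against GFP and 19.2-fold (12.6 to 30.4) against vector, and higher with the MYC label by 14.6-fold (11.3 to 19.2) against GFP and 26.0-fold (17.3 to 40.9) against vector. Both labelled libraries thus lay well above both controls. OAS1 had 5.49, 29.7, 4.41 and 4.76 CPM, and was higher with the MYC label by 6.73-fold (5.10 to 9.01) against GFP and 6.24-fold (4.54 to 8.76) against vector. OAS1 with the miR-105 label thus lay near the controls while OAS3, its neighbour on chromosome 12, did not. OAS2 had 0, 12, 1 and 1 reads and OASL had 1, 3, 3 and 3 reads, both below the filter.

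The IFIT genes, which lie together on chromosome 10 and encode proteins that bind foreign RNA, had no member higher in either labelled library. Over all compared genes 14.7% were higher and 16.6% lower with the miR-105 label, and 9.03% and 10.4% with the MYC label. IFIT2 had 4 reads or 0.627 CPM with the miR-105 label, 7.58 CPM with the MYC label, 19.5 in GFP and 16.9 in vector. With the miR-105 label it was lower by 31.1-fold (12 to 115) against GFP and 26.9-fold (10.29 to 99.9) against vector. With the MYC label it was lower by 2.57-fold (2.0 to 3.34) against GFP and 2.22-fold (1.69 to 2.95) against vector. IFIT1 had 0.784, 1.90, 3.54 and 4.86 CPM, lower with the miR-105 label by 4.51-fold (1.81 to 14.5) against GFP and 6.20-fold (2.47 to 20.0) against vector on 5 reads. The other family members met the rule in neither library, with IFIT3 at 5.33, 13.9, 8.16 and 10.7 CPM and IFIT5 at 32.2, 31.5, 52.3 and 47.2 CPM. The neighbours in this cluster thus differed by unequal amounts in the same library.

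IFIT2 is also the only member lower with the miR-105 label whose annotated 3′ untranslated region holds a match to the seed of miR-105-5p. That search was chosen after the values had been seen. The mature sequence from RefSeq (GRCh38.p14), with bases 2 to 8 in capitals, and the match in the IFIT2 transcript of GENCODE v29, at base 1460 of a region of 1901 bases, with the letters that pair with the seed in capitals, are these:
hsa-miR-105-5p: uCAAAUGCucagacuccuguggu
IFIT2 match: cttgttgcacGCATTTGaggtcatcag
Such a match was found in 8 of 36 compared members (22.2%), against 16.9% of 12086 compared genes with an annotated region. Of those 8 members 1 was lower with the miR-105 label and none higher. Of the 28 without a match 10 were lower and 3 higher. Over all compared genes 16.6% were lower and 14.7% higher with the miR-105 label. A match to the seed of the other arm, miR-105-3p, was found in none of the 36, against 1.54% of genes. The other members with a 5p match were DDX58, DTX3L, IFIH1, IFIT5, ISG20, PARP14 and PARP9. The regions searched had a median length of 1047 bases in members and 1330.5 bases in all compared genes.

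All 3 compared membrane restriction factors were higher with the MYC label, and none met the rule with the miR-105 label. Over all compared genes 9.03% were higher with the MYC label, and 14.7% were higher and 16.6% lower with the miR-105 label. BST2 passed the filter only through the library labelled MYC and so had to be high there. BST2, or tetherin, which holds budding virions at the cell surface, had 2 reads with the miR-105 label, 502 with the MYC label, 1 in GFP and 0 in vector. At 47.6 CPM with the MYC label it was 659-fold (118 to 26074) above GFP and at least 147-fold above vector, taking 3 reads as the floor of the vector library. By the smaller of its 2 log2 differences from GFP and vector, it ranked 11 from the top among all compared genes in that library. The ranks given below use the same measure. IFITM1, which hinders the fusion of viruses with the cell, had 12.2, 130.3, 17.7 and 24.8 CPM in the miR-105, MYC, GFP and vector libraries, higher with the MYC label by 7.36-fold (6.42 to 8.47) against GFP and 5.26-fold (4.57 to 6.08) against vector. IFITM2, its endosomal relative, had 47.7, 373, 75.4 and 117 CPM, higher by 4.95-fold (4.62 to 5.31) against GFP and 3.19-fold (2.98 to 3.41) against vector. The library labelled MYC was thus the highest of the 4 for all 3 genes, and the library labelled miR-105 the lowest for both IFITM genes. IFITM1, IFITM2 and IFITM3 are alike over long stretches, so the counting may have split reads between them.

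Of the guanylate-binding GTPases GBP1, GBP2 and GBP3, neighbours on chromosome 1 that act against intracellular pathogens, 2 were lower with the miR-105 label and none was different with the MYC label. Over all compared genes 16.6% were lower with the miR-105 label, and 9.03% were higher and 10.4% lower with the MYC label. GBP2 had 12 reads or 1.88 CPM with the miR-105 label, 131.8 CPM with the MYC label, 134.2 in GFP and 135.2 in vector. It was lower with the miR-105 label by 71.3-fold (40.7 to 138) against GFP and 71.9-fold (41.0 to 139) against vector, and ranked 9 from the bottom among all compared genes there. The 3 other libraries lay close together. GBP1 had 12.2, 19.5, 40.6 and 30.9 CPM, lower with the miR-105 label by 3.32-fold (2.61 to 4.26) against GFP and 2.53-fold (1.96 to 3.29) against vector. GBP3 had 29.5, 14.5, 30.3 and 25.2 CPM and met the rule in neither library. GBP1 and GBP3 are close in sequence, so shared reads make their split uncertain. MX1 had 1, 18, 9 and 5 reads and MX2 had 0, 3, 2 and 0 reads; these dynamin-like antiviral GTPases stayed below the filter.

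ISG15, a ubiquitin-like protein that is joined to others, and USP18, the protease that removes it and also restrains type I receptor signalling, differed in opposite directions in the library labelled miR-105 by the 2-fold rule. DESeq2, with the controls as 1 group, called neither, at an adjusted p of 0.14 for USP18 and 0.21 for ISG15. USP18 had 9.72, 3.51, 3.18 and 2.70 CPM in the miR-105, MYC, GFP and vector libraries, higher with the miR-105 label by 3.06-fold (2.05 to 4.61) against GFP and 3.60-fold (2.23 to 5.98) against vector. ISG15 had 1.73, 2.84, 4.41 and 6.49 CPM, 2.55-fold (1.33 to 5.38) and 3.76-fold (1.96 to 7.93) lower with it, on 11 reads. The ligase HERC5, which joins ISG15 to its targets, had 1, 9, 4 and 2 reads, and HERC6 had 10.5, 8.44, 17.2 and 12.8 CPM. USP18 alone among the 36 compared members was higher by the rule with the miR-105 label and not with the MYC label. Of a list of 9 negative regulators of the pathway, CISH was higher in both labelled libraries (4.39, 5.69, 0.650 and 0.541 CPM) and PTPN1 higher with the miR-105 label (127, 88.3, 55.3 and 44.1 CPM). By the 2-fold rule SOCS3 was lower with the miR-105 label and higher with the MYC label, at 3.29, 22.6, 8.96 and 10.2 CPM. PTPN6 was lower with the miR-105 label at 12.1, 33.4, 27.5 and 33.2 CPM. Unlike edgeR, DESeq2 called SOCS3 in neither labelled library and did not call CISH with the miR-105 label.

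PARP14, a mono-ADP-ribosyltransferase, had 16.8, 111, 43.4 and 26.6 CPM in the miR-105, MYC, GFP and vector libraries. It was higher with the MYC label by 2.56-fold (2.32 to 2.83) against GFP and 4.18-fold (3.64 to 4.82) against vector. PARP9 and DTX3L, which form a complex and sit head to head on chromosome 3 beside PARP14, met the rule in neither library. PARP9 had 21.8, 35.6, 26.9 and 20.3 CPM, and DTX3L had 52.5, 105, 74.3 and 50.4 CPM. All 3 genes were highest in the library labelled MYC, but the 2 neighbours of PARP14 by less than 2-fold over GFP. Reads where PARP9 and DTX3L adjoin cannot be assigned, since no strand setting is stated.

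Among RSAD2, CMPK2, ISG20, SAMD9 and SAMD9L, none of the 3 compared members was higher in a labelled library. Over all compared genes 14.7% were higher with the miR-105 label and 9.03% with the MYC label. SAMD9, an inhibitor of poxvirus replication, had 143 CPM with the miR-105 label, 41.2 with the MYC label, 237 in GFP and 118 in vector. With the MYC label it was 5.75-fold (5.20 to 6.37) and 2.86-fold (2.56 to 3.21) lower, but the controls also differed from each other. ISG20, an RNA exonuclease, had 2.20, 1.23, 4.62 and 5.95 CPM, lower with the MYC label by 3.75-fold (2.05 to 7.42) against GFP and 4.82-fold (2.60 to 9.63) against vector on 13 reads. SAMD9L had 4.23, 5.12, 12.4 and 7.57 CPM and met the rule in neither library. RSAD2, or viperin, had 0, 9, 0 and 1 reads, and CMPK2, its neighbour on chromosome 2, had 0, 11, 0 and 0 reads. These 2 genes overlap, and without a stated strand setting the few reads may be shared between them.

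The members named IFI lay near both ends of the list in the library labelled MYC, from IFI44L to IFI27. IFI44L had 8.94 CPM with the miR-105 label, 77.6 with the MYC label, 1.81 in GFP and 4.22 in vector. It was higher with the miR-105 label by 4.95-fold (3.04 to 8.27) against GFP and 2.12-fold (1.39 to 3.27) against vector, the last value barely past the rule. With the MYC label it was higher by 43.0-fold (28.9 to 66.8) against GFP and 18.4-fold (13.4 to 26.1) against vector. IFI27, a small mitochondrial protein used as an interferon marker in blood, had 3 reads or 0.471 CPM with the miR-105 label, 9 reads or 0.853 CPM with the MYC label, 6.43 CPM in GFP and 4.11 in vector. It was lower with the miR-105 label by 13.7-fold (4.53 to 67.5) against GFP and 8.73-fold (2.77 to 44.2) against vector, and lower with the MYC label by 7.53-fold (3.80 to 17.0) against GFP and 4.81-fold (2.29 to 11.3) against vector. IFI44L and IFI27 thus differed in opposite directions in both labelled libraries. IFI35 had 1.41, 5.21, 1.23 and 0.973 CPM, higher with the MYC label by 4.25-fold (2.43 to 7.80) against GFP and 5.36-fold (2.63 to 12.3) against vector. IFI6 had 6, 22, 6 and 6 reads, higher with the MYC label by 4.81-fold (1.89 to 14.5) against GFP and 3.22-fold (1.26 to 9.69) against vector. IFI6 passed the filter only through the library labelled MYC and so had to be high there.

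Of the remaining members, EPSTI1 had the largest deficit of the list in the library labelled MYC. It stood at 17.6 CPM with the miR-105 label, 0.284 CPM or 3 reads with the MYC label, 45.8 CPM in GFP and 51.1 in vector. That is 161-fold (54.8 to 783) below GFP and 179.8-fold (61.1 to 875) below vector with the MYC label, rank 20 from the bottom among all compared genes. With the miR-105 label EPSTI1 was 2.61-fold (2.13 to 3.22) and 2.91-fold (2.36 to 3.61) lower. TRIM22, an antiviral member of the tripartite motif family, had 24.6, 76.1, 102 and 73.5 CPM in the miR-105, MYC, GFP and vector libraries, lower with the miR-105 label by 4.15-fold (3.52 to 4.93) against GFP and 2.99-fold (2.51 to 3.57) against vector. SP100, a nuclear body protein, had 66.3, 76.7, 90.9 and 79.1 CPM, and LGALS3BP, a secreted glycoprotein, had 136, 176, 125 and 132 CPM. Those 2 abundant members lay within 2-fold across all 4 libraries.

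**Figure D4:**
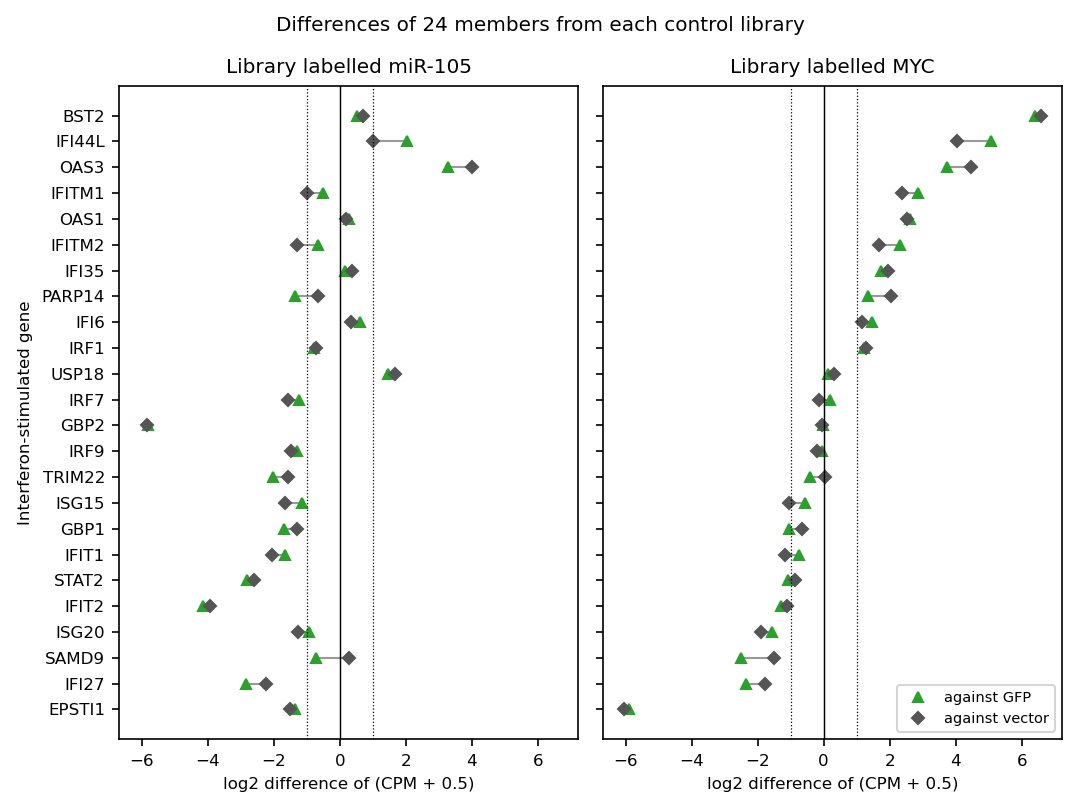
Log2 difference of CPM + 0.5 from GFP (triangles) and from vector (diamonds) for the 24 members different in at least 1 labelled library, the library labelled miR-105 in the left panel and the library labelled MYC in the right, sorted by the mean difference in the right panel; dotted lines mark 2-fold. BST2 and EPSTI1 lie at the ends of the right panel, and GBP2 has the lowest points of the left panel.

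Between the control libraries fewer members differed. Of the 36 compared members 1 was at least 2-fold higher in GFP than in vector, where 3.06% of all compared genes were, and 1 was at least 2-fold lower, where 1.03% were. SAMD9 was 2.01-fold (1.88 to 2.15) higher in GFP and IFI44L 2.33-fold (1.38 to 4.03) lower in GFP, the first barely past the rule. The median log2 difference of GFP over vector was 0.20 for the compared members and 0.03 for all compared genes.

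Set directly against each other, the 2 labelled libraries separated the list further. With the miR-105 label 4 of 36 compared members were at least 2-fold higher than with the MYC label (19% of all compared genes) and 15 were lower (19.8% of all genes), with a median log2 difference of −0.88 against 0.05 over all genes. The higher members were EPSTI1 at 61.8-fold (20.6 to 304), SAMD9 at 3.46-fold (3.08 to 3.89), USP18 at 2.77-fold (1.82 to 4.29) and DDX60 at 2.53-fold (1.82 to 3.55). Among the lower ones the deficit with the miR-105 label was 152-fold (41.8 to 1256) for BST2, 70.02-fold (40.0 to 136) for GBP2 and 12.1-fold (4.54 to 45.5) for IFIT2. All 4 transcription factors of the list were lower with the miR-105 label, from 2.49-fold for IRF9 to 4.04-fold for IRF1. All 3 membrane restriction factors were lower as well, with IFITM1 at 10.6-fold (8.47 to 13.6) and IFITM2 at 7.83-fold (6.97 to 8.83). BST2 had to be lower here, because it passed the filter only through the library labelled MYC. This comparison uses the same labelled libraries as those above and is not further evidence for them.

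Of 19 genes outside the list that interferon gamma is known to induce, 13 passed the filter, and 4 were higher and 2 lower with the miR-105 label, against 7 higher and none lower with the MYC label. The 7 include CIITA, which passed the filter only through the library labelled MYC and so had to be high there. Over all compared genes 14.7% were higher and 16.6% lower with the miR-105 label, and 9.03% higher and 10.4% lower with the MYC label, so that the 2 of 13 lower are near the general share. NLRC5, which switches on MHC class I genes, had 6.27, 46.0, 1.16 and 1.51 CPM in the miR-105, MYC, GFP and vector libraries and was higher in both labelled libraries. The immunoproteasome subunit PSMB9 had 1.41, 16.7, 0.795 and 0.432 CPM, and the peptide transporter subunit TAP1 had 40.2, 197, 44.1 and 46.7 CPM, both higher with the MYC label only by the rule. CD274, which encodes the checkpoint ligand PD-L1, was higher with the miR-105 label only by the rule, at 7.84, 1.42, 2.02 and 1.19 CPM. DESeq2, unlike edgeR, did not call CD274 higher there. ICAM1, the leukocyte adhesion receptor, was lower with the miR-105 label and higher with the MYC label, at 2.04, 91.7, 4.91 and 8.97 CPM.

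Of a further list of 50 interferon-inducible genes 46 passed the filter, and 3 were higher and 10 lower with the miR-105 label, against 14 higher and 3 lower with the MYC label, to be read against the same shares. The median log2 difference was −0.41 with the miR-105 label and 0.55 with the MYC label, beside 0.01 and 0.04 over all compared genes. UBA7, the enzyme that activates ISG15, had 1.25, 27.5, 19.4 and 21.1 CPM and was lower with the miR-105 label by 15.4-fold against GFP and 16.8-fold against vector. UBE2L6, the enzyme that then carries ISG15, had 0.314, 31.2, 2.31 and 1.73 CPM. It was lower with the miR-105 label, on 2 reads and with a DESeq2 adjusted p of 0.082, and higher with the MYC label by 13.5-fold against GFP and 18.0-fold against vector. LGALS9, which encodes galectin-9, had 6.90 CPM with the miR-105 label, 1 read with the MYC label, 7.80 CPM in GFP and 6.70 in vector, lower with the MYC label only by the rule.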

How the data were processed

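Poly(A) RNA-seq of 4 MCF10A lines, with 1 library per construct, was read from 1 deposited table. TopHat2, edgeR and the build hg19 are named without versions in the submitters' processing notes. How reads were counted, on which annotation and with which strand setting is not given in the sources used here. In that table the authors deposited a depth-adjusted signal per gene where raw counts had been assumed in the design, with column totals between 9220845 and 10307368. The deposited values had the form of edgeR pseudo-counts at a dispersion of 0.0553, and in every library that step could be inverted to whole reads for 100% of its 18859 values, within a relative residual of 1.13e-07 (tolerance 1e-06). On simulated data the inversion was tested and returned the reads that had been drawn. Of the lines, 19 exact repeats were dropped, leaving 18840 genes.

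CPM was computed from library totals and TMM factors (edgeR 4.0.16, R 4.3.3). Folds carry exact conditional binomial 95% intervals (SciPy 1.17.1, Python 3.11.15), and a fold against 0 reads uses a floor of 3 reads in that library. These intervals cover counting error only, since each construct had 1 library. The reads carry no molecular identifiers and are not independent, so the intervals may be too narrow even for counting error. Low genes are understated by the 0.5 CPM added on the log2 scale. The 46 members, the pathway lists and the markers were chosen with earlier results of these data known. Members past the rule in a labelled library or between the controls are named with values in all 4 libraries, and the others are given too. From each pathway list at most 6 genes past the rule are named, besides ligands and receptors; 2 genes of these lists are not reported here and are left out of the counts.

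As an alternative, the GFP and vector libraries were treated as 1 control group with 1 residual degree of freedom, which compares these libraries and not conditions. At a Benjamini-Hochberg adjusted p under 0.05, edgeR's quasi-likelihood test called 2468 genes higher and 2410 lower with the miR-105 label, and 1361 higher and 1427 lower with the MYC label. DESeq2 1.42.0 called 1606 and 1751, and 703 and 1053, in the same order. Scaling, the added constant, the filter, the threshold, the choice of control and the values as deposited were varied as well.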

Additional observations from a re-analysis of the deposited data

How the results depend on the processing

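The median of the members with the MYC label, −0.05 on the log2 scale, turned positive in 4 settings: 0.058 with library totals alone, 0.22 with no filter, 0.0079 with the values as deposited and 0.0064 with vector as the only control. Library totals alone also moved the median of all compared genes, to −0.09 with the miR-105 label and 0.14 with the MYC label, so those folds are read relative to it. At a 1.5-fold threshold 17 members were lower with the miR-105 label (24.7% of all compared genes), 9 were lower with the MYC label (17.2%), 7 were higher (13%) and 2 lower (6.99%) in GFP than in vector, and 23 were lower with the miR-105 label than with the MYC label (29.3%). At a 3-fold threshold 1 was higher (7.19%) and 5 lower (9.62%) with the miR-105 label, 2 were lower with the MYC label (5.78%), 0 were higher (0.505%) and 0 lower (0.144%) in GFP, and 2 were higher with the miR-105 label than with the MYC label (9.76%). The member higher in GFP than in vector was lost, leaving 0, with totals alone, with median-of-ratios size factors, with 2 CPM added and with the values as deposited, and 2 CPM added also left 0 lower. Members lower with the MYC label numbered 3 at a mean of at least 5 CPM (9.49% of all genes) and 10 against GFP alone (14.3%). Members higher with the miR-105 label numbered 2 in place of 3, without IFI44L, under the 3 other scalings and with 2 CPM added. With the controls as 1 group, DESeq2 called 1 member higher with the miR-105 label and 2 lower with the MYC label, while the other counts of DESeq2 and all those of edgeR stayed within 1.5 times. The cause of these shifts was not tested. Of 50 differences of single called members, none changed direction under the 3 other scalings, and 4 moved beyond their counting interval with totals alone. With median-of-ratios size factors 1 did so, and with the values as deposited 1. Both are the difference of BST2 with the MYC label, at 6.50 and 6.53 on the log2 scale beside 6.49 in the main setting. That difference is also 1 of the 4 with totals alone. Its interval is of plain ratios, from 118-fold against GFP and 119-fold against vector, while the log2 values have 0.5 CPM added. The main value of BST2 therefore also lies below the interval, and its moves say nothing about scaling. No paired analysis was possible because each construct had 1 library. Leaving out a library would remove a construct, except for the use of each control alone, which was run. Depth limits BST2, EPSTI1, IFIT1, IFIT2, IFI6, IFI27, IFI35, ISG15 and GBP2, whose lowest values rest on 0 to 12 reads.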

Other observations

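In the wider list of interferon-inducible genes, the 3 with the largest smaller difference from the controls in the library labelled MYC encode complement proteins; they are named for the size of that difference, and complement genes were not counted as a list. C1S, a protease of the classical pathway, had 4 reads with the miR-105 label, 1205 with the MYC label, 6 in GFP and 14 in vector, which with the MYC label is 264-fold above GFP and 75.5-fold above vector. Its partner C1R had 2.51, 279, 2.67 and 5.73 CPM in the miR-105, MYC, GFP and vector libraries, and CFB, a factor of the alternative pathway, had 18.5, 478, 27.1 and 29.1 CPM.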
